A study of Mus musculus with 6 samples.

Results

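A set of 9 genes that mark or regulate dendritic cells were followed in thrombosed mouse veins, and all were present among the 16533 genes of the deposited count tables. They were found in the tables by symbol: Xcr1, Clec9a, Batf3, Itgae, Cd209a, Siglech, Flt3, Zbtb46 and Ccr7. Each library was made from inferior vena cavae that had been ligated for 24 h, with the thrombus inside, and held 3 pooled thrombi. The mKO group (genotype Stingf/f Lyzm-Cre+/-, 3 libraries) carries Cre recombinase in a copy of the Lyz2 locus, which deletes the loxP-flanked Sting1 gene in neutrophils, monocytes and macrophages, while recombination in conventional dendritic cells is known to be partial. The control group (genotype Stingf/f, 3 libraries) carries the same floxed gene without Cre. Animals of both groups therefore share the floxed allele and the ligation, and no unligated vein was used here. With 3 pools a group, every p-value measures the spread between pools, and in whole tissue fewer cells of a type and less RNA per cell cannot be told apart.

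Dendritic cells take up antigen, move to lymph nodes and present it to T cells. Conventional dendritic cells of type 1 (cDC1) depend on the transcription factors BATF3 and IRF8 and take up dead cells, conventional dendritic cells of type 2 (cDC2) depend largely on IRF4, and plasmacytoid dendritic cells (pDC) depend on TCF4 and make type I interferon. The cytokine FLT3 ligand, acting on the receptor FLT3, drives the development of all these subsets, and CCR7 guides their mature forms towards lymphatic vessels.

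The sequences before the start sites of Xcr1, Flt3, Cd209a and Zbtb46 are shown because these matched genes had groups that did not overlap, Flt3 and Cd209a higher in mKO and Xcr1 and Zbtb46 lower. They come from RefSeq (build GRCm38.p6), which held a start site for 7 of the 9 members; Ccr7 and Itgae were not matched. Each run is 250 bases long, ends at the base before the annotated start and reads 5′ to 3′ on the gene's own strand, at chr9:123862030-123862279 (minus strand) for Xcr1, chr5:147400490-147400739 (minus strand) for Flt3, chr8:3748985-3749234 (minus strand) for Cd209a and chr2:181424389-181424638 (minus strand) for Zbtb46. Capitals mark a core of the ETS family, GGAAGT, or its complement, and in Zbtb46 a match to the AP-1 motif TGANTCA; PU.1, a factor that dendritic cells need, belongs to the ETS family.
Xcr1: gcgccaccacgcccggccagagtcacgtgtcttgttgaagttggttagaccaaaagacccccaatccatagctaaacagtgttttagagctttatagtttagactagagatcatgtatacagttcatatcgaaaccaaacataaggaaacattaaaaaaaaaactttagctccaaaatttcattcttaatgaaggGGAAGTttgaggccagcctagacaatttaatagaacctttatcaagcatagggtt
Flt3: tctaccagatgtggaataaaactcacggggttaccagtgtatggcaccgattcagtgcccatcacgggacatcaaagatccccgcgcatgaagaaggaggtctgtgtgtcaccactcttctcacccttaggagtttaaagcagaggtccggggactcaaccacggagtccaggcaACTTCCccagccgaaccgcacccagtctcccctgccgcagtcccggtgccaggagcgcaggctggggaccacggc
Cd209a: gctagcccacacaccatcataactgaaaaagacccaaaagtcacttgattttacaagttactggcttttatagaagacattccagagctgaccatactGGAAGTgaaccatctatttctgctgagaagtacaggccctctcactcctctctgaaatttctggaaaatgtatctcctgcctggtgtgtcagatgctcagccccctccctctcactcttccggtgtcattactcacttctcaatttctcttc
Zbtb46: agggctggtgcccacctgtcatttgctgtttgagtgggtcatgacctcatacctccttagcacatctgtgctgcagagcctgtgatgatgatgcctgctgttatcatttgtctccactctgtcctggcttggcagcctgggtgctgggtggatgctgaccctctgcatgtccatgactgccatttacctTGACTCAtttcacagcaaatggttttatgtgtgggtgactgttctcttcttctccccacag

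Searched on both strands, GGAAGT was found in the windows of 5 of the 7 matched members (Xcr1, Flt3, Cd209a, Batf3 and Siglech), and in 19.8% of the 32526 distinct windows of the same length. The motif TGANTCA, bound by AP-1 factors and by BATF proteins, was found for Zbtb46 only, against 6.73% of all windows. Whether the annotated starts, that of Zbtb46 among them, are the ones used in these veins was not tested. The letters of these motifs do not overlap. Of the genes shown, Flt3 and Cd209a, higher in mKO, and Xcr1, lower in mKO, carried GGAAGT, while Zbtb46, also lower in mKO, did not.

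Library totals ran from 158579864 to 180068483 counts, and the members together took 2769 to 4297 counts in a library. The lowest member count was 87, for which counting error alone is 10.7% of the value. Sting1 had 22.7, 21.4 and 28.7 CPM (counts after scaling all libraries to the same size) in mKO libraries 1 to 3 and 25.1, 31.4 and 27.1 CPM in control libraries 1 to 3; the groups overlapped, and a count over the whole gene and tissue does not show a deletion limited to myeloid cells. Lyz2, whose locus carries Cre in mKO only, averaged 982 ± 294 CPM in mKO and 1691 ± 235 CPM in control (SD, n = 3 each). Ptprc, which codes for the CD45 protein of all leukocytes, had 269, 377 and 345 CPM in mKO libraries and 248, 210 and 218 CPM in control libraries, and its groups did not overlap. Endothelial genes showed the vessel wall in every library, with Pecam1 between 180 and 253 CPM, and red cell globin took 21.2 to 27.1% of the counts. Library 3 of mKO stood apart in tissue carried over, with the skeletal muscle gene Ckm at 37.6 CPM against 0.209 to 9.77 CPM elsewhere. Th, a gene of sympathetic nerves, had 0.152 CPM in that library against 16.7 to 52.7 CPM elsewhere, the highest in control library 3.

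By edgeR's quasi-likelihood test, 0 of the 9 members had an adjusted p under 0.05, and 0% of the 16523 genes tested did; limma voom also called 0 genes. At an unadjusted p under 0.05 by edgeR there were 4 members, Flt3, Itgae and Cd209a higher in mKO (beside 5.6% of all genes) and Xcr1 lower (beside 6.26%), and 11.9% of all genes in either direction. DESeq2 called 1 member, Flt3, as higher in mKO, beside 2.8% of all genes, or 1.47% counting the higher ones alone. The 3 mKO libraries all lay above the 3 control libraries for Itgae, Cd209a and Flt3, beside 8.76% of all genes, and all below for Xcr1 and Zbtb46, beside 9.39% of all genes. The log2 fold changes of mKO over control stood at the 99.0 percentile of all genes for Itgae, at 98.4 for Cd209a, at 97.6 for Flt3 and at 1.86 for Xcr1. The members thus did not move as a block: 4 had a log2 fold change above 0 and 5 below, with a median of -0.051 beside -0.030 over all genes. Of all genes tested, 7576 were above 0 and 8947 below, and groups did not overlap for 18.2% in either direction. The counts for the lists below are to be read beside these shares.

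**Figure D1:**
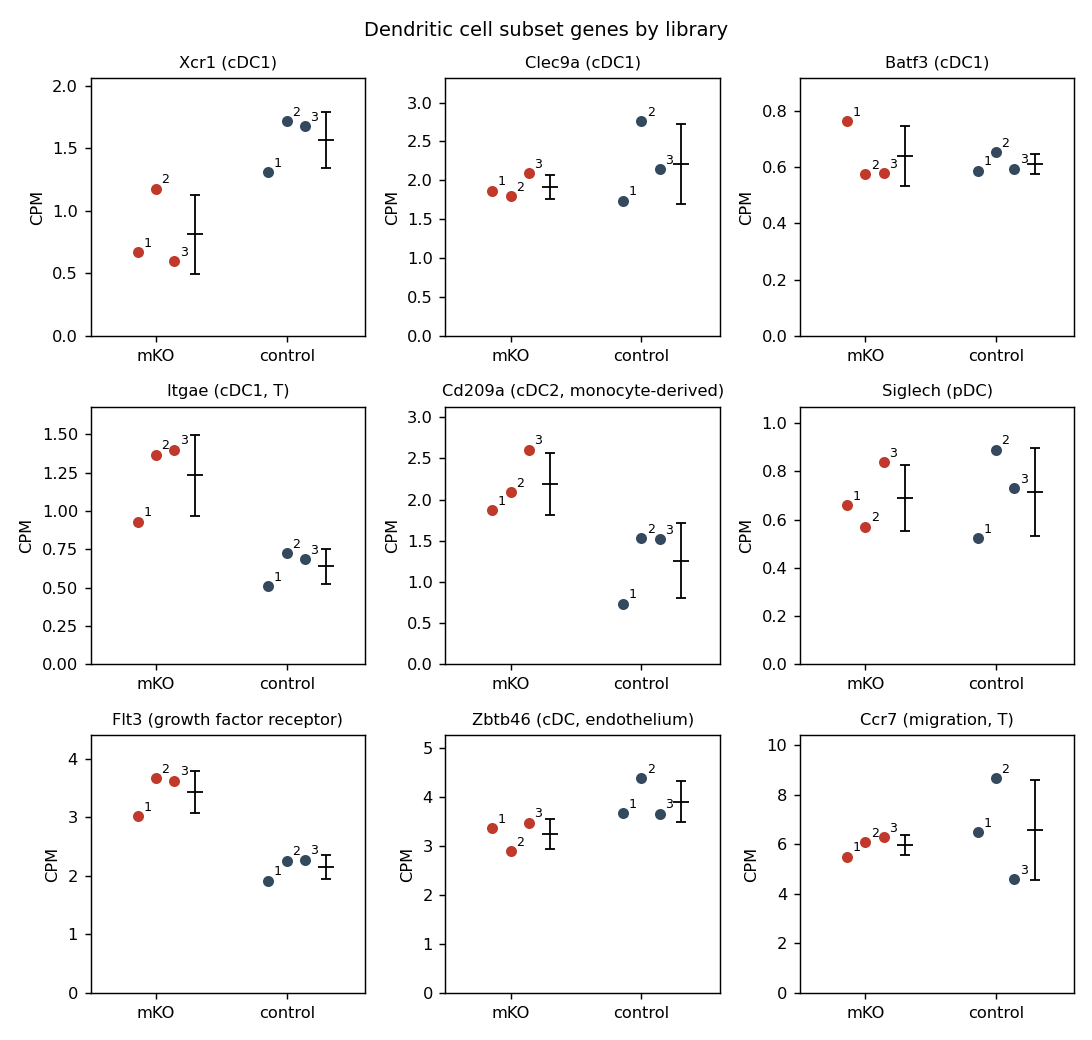
CPM of each member (y axis, from 0) in the mKO libraries (red, left) and the control libraries (dark, right), with library numbers beside the points and the mean and SD as bars. Itgae, Cd209a and Flt3 had all mKO points above the control points, Xcr1 and Zbtb46 had all below, and the other 4 members overlapped.

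Xcr1 (ENSMUSG00000060509, chromosome 9), the receptor for the chemokine XCL1 and a marker restricted to cDC1, had the largest drop in estimate among the members. It had 0.670, 1.18 and 0.597 CPM in mKO libraries 1 to 3, against 1.31, 1.72 and 1.68 CPM in control libraries 1 to 3. The highest mKO library, 2, came close to the lowest control library, 1, and the other mKO libraries were well below. Its estimate by edgeR was a log2 fold change of -0.95 (SE 0.31, 95% interval -1.67 to -0.22), and the adjusted p was 0.333 by edgeR and 0.138 by DESeq2. A two-sided exact permutation test gave p = 0.1, the least that 3 against 3 libraries allow. Without mKO library 2, the one nearest to control, DESeq2 called Xcr1 (log2 fold change -1.29, adjusted p 0.000565), and without any of the other 5 libraries in turn it did not (adjusted p 0.140 to 0.536).

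Clec9a (ENSMUSG00000046080, chromosome 6), the receptor by which cDC1 sense the exposed actin of dead cells, had groups that overlapped. Its level was 1.87, 1.80 and 2.09 CPM in mKO libraries and 1.74, 2.76 and 2.14 CPM in control libraries. Control library 2 stood above the rest, and without it the log2 difference was -0.015. The difference was -0.21 on the log2 scale (SE 0.22, 95% interval -0.72 to 0.31, edgeR adjusted p 0.698). Xcr1 had 0.359, 0.655 and 0.286 counts for each count of Clec9a in mKO libraries 1 to 3, against 0.755, 0.622 and 0.783 in control libraries 1 to 3. This ratio was lower in mKO libraries 1 and 3 only, while mKO library 2 lay within the control range, and the two-sided exact permutation test gave p = 0.2. Per count of Irf8, a factor that cDC1 need, Xcr1 had 0.0359 ± 0.0194 counts in mKO and 0.0669 ± 0.00817 in control (SD, n = 3 each), and mKO library 2 lay just within the control range.

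In the GENCODE M21 annotation (build GRCm38), Clec9a shares 184 exonic bases with Clec1b, a receptor of platelets that lies on the same strand. Clec1b had 250, 447 and 283 CPM in mKO libraries and 404, 569 and 560 CPM in control libraries, far above Clec9a. How reads in the shared bases were assigned is not stated in the labels or the notes, so the Clec9a count is uncertain. Per count of Clec1b, Clec9a had 0.00748, 0.00403 and 0.00738 counts in mKO libraries and 0.00430, 0.00485 and 0.00383 in control libraries, which overlapped. The part of Clec1b reads in the Clec9a count was not tested. Platelet genes, a list of 14 added after the values were seen, also had their lower values in mKO libraries 1 and 3: their summed level was 3779 to 6043 CPM in mKO and 5194 to 7586 CPM in control, all 14 had a log2 fold change below 0, and the median was -0.43; it shifted to -0.78 when mKO library 2 was left out and to -0.26 when mKO library 1 was. Pf4 and Ppbp, the first of them, reached 805 CPM or more in every library, so none of the defining markers was at 0. Set against Clec1b, Xcr1 had 0.00269, 0.00264 and 0.00211 counts per count in mKO libraries and 0.00325, 0.00302 and 0.00300 in control libraries. The groups did not overlap there, and the log2 difference was -0.32. Set against Pf4, Xcr1 had 0.000801, 0.00100 and 0.000742 counts per count in mKO libraries and 0.00115, 0.00102 and 0.000852 in control libraries, which overlapped (log2 difference -0.25, two-sided exact permutation p = 0.2). Both genes were chosen after the values were seen and had lower estimates in mKO (log2 fold change -0.65 for Clec1b and -0.77 for Pf4). A smaller difference for Xcr1 was thus fixed in advance by that choice. The part of platelet content in the Xcr1 result was not tested.

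Batf3 (ENSMUSG00000026630, chromosome 1), the transcription factor that cDC1 need for their development, had close to the same level in both groups. It stood at 0.763, 0.576 and 0.579 CPM in mKO libraries and at 0.588, 0.653 and 0.594 CPM in control libraries. Its log2 fold change, 0.065 (SE 0.25, edgeR adjusted p 0.922), had a 95% interval of -0.51 to 0.64 that holds differences of either sign. Among the 14 measured of 15 companion cDC1 genes, 9 were above 0 and 5 below, the median was 0.15, and the groups stood apart for 3 of them, 2 higher and 1 lower. Irf8, the factor that acts with BATF3, had 20.3 to 27.3 CPM in mKO and 22.6 to 24.4 CPM in control, and the adhesion molecule Cadm1 had 1.05 to 6.93 CPM in mKO and 4.03 to 9.16 CPM in control. Neither set of values separated the groups. Cd24a, which neutrophils and red cell precursors also carry, had a log2 fold change of 0.66 (SE 0.17, edgeR adjusted p 0.248), and DESeq2 called it (adjusted p 0.00358). Tlr3, a sensor of double-stranded RNA that cDC1 carry, had -0.58 (SE 0.24), Gcsam -0.48 (SE 0.23), Naaa 0.30 (SE 0.11), Wdfy4, needed by cDC1 for cross-presentation, 0.41 (SE 0.17), and Ifi205, of a family of similar interferon-inducible genes, -0.67 (SE 0.29). Their adjusted p-values by edgeR lay between 0.367 and 0.459, so the cDC1 list held no gene that passed the test and no common direction.

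Itgae (ENSMUSG00000005947, chromosome 11) codes for CD103, the integrin chain that binds E-cadherin and is carried by cDC1 of tissues, by resident CD8 T cells and by regulatory T cells. It had 0.930, 1.37 and 1.40 CPM in mKO libraries and 0.512, 0.724 and 0.684 CPM in control libraries. All mKO libraries lay above all control libraries, and mKO library 1 was the closest to them. By edgeR the log2 fold change was 0.94 (SE 0.27, 95% interval 0.31 to 1.58, adjusted p 0.304). The adjusted p was 0.059 by DESeq2, and the two-sided exact permutation test gave p = 0.1. Itgae had 0.586 ± 0.0692 counts per count of Cd3e, a gene of all T cells, in mKO and 0.309 ± 0.0829 in control (SD, n = 3 each). Against Cd8a the values were 0.541 ± 0.116 in mKO and 0.208 ± 0.0570 in control (SD, n = 3 each). Neither ratio overlapped between groups (two-sided exact permutation p = 0.1 for each), so Itgae was higher in mKO also relative to these T cell genes. The gene Haspin lies within Itgae on the opposite strand and shares no exonic base with it; it averaged 1.18 ± 0.185 CPM in mKO and 1.00 ± 0.0422 CPM in control (SD, n = 3 each).

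Most T cell genes did not follow Itgae, while Foxp3 had a higher estimate in mKO. Of 11 genes, 2 were above 0 and 9 below, with a median of -0.35 (-0.10 without control library 2), and 1, Lef1, had groups that did not overlap (lower). The summed level was 26.3 to 30.2 CPM in mKO and 25.9 to 46.6 CPM in control. Cd3e had 1.83 to 2.29 CPM in mKO and 1.27 to 2.92 CPM in control, Cd8b1 differed by -0.66 on the log2 scale (SE 0.27), and Foxp3, the factor of regulatory T cells, had 0.75 (SE 0.29), with 1.10, 2.1 and 1.59 CPM in mKO libraries and 0.784, 0.960 and 1.11 CPM in control libraries. Foxp3 had its lowest mKO value, in library 1, within the control range. Of the partners of CD103, the beta chain gene Itgb7 had 19.4 to 26.6 CPM in mKO and 14.3 to 21.0 CPM in control, which overlapped. Cdh1, which codes for its ligand E-cadherin, had 3.71, 2.38 and 2.22 CPM in mKO libraries and 0.942, 1.85 and 1.98 CPM in control libraries, with no overlap and a log2 fold change of 0.80 (SE 0.34, edgeR adjusted p 0.408). The part of T cells in the Itgae result was not tested. Itgae alone already separated the groups, and ratios to Cd3e and Cd8a cannot show which cells carry it. A ratio to Foxp3 was not computed, and the part of regulatory T cells was not tested either.

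Cd209a (ENSMUSG00000031494, chromosome 8), a mouse relative of the lectin DC-SIGN found on cDC2 and on dendritic cells that derive from monocytes, had 1.87, 2.09 and 2.60 CPM in mKO libraries. Control libraries had 0.735, 1.53 and 1.52 CPM. The mKO libraries were all higher, though control library 1 lay far under the other two controls. For Cd209a edgeR gave a log2 fold change of 0.80 (SE 0.32, 95% interval 0.058 to 1.53, adjusted p 0.393), DESeq2 an adjusted p of 0.201 and the two-sided exact permutation test p = 0.1. Without control library 1 the log2 fold change was 0.52 (adjusted p 0.376 by edgeR). Relative to Csf1r, the receptor that monocytes and macrophages need, Cd209a had 0.00957, 0.00904 and 0.0144 counts per count in mKO libraries and 0.00433, 0.0103 and 0.00907 in control libraries, which overlapped. Cd209a belongs to a cluster of similar lectin genes, so reads shared with its relatives may add to the error.

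Of the 10 measured of 11 companion cDC2 genes, 7 were above 0 and 3 below, with a median of 0.37. Groups did not overlap for 2, both higher: Sirpa, a receptor that macrophages and neutrophils also carry, at 0.43 on the log2 scale (SE 0.13, adjusted p 0.317 by edgeR and 0.0431 by DESeq2), and Relb, with 0.23 (SE 0.12). Irf4 had 1.21, 1.18 and 1.79 CPM in mKO libraries and 4.72, 1.49 and 1.06 CPM in control libraries, so control library 1 alone was high. Clec10a, a lectin of cDC2 and macrophages, had 2.51 to 4.88 CPM in mKO and 2.78 to 2.95 CPM in control. The defining genes of cDC2 thus did not separate the groups. Notch2 had a log2 fold change of 0.46 (SE 0.21), Cd7 -0.40 (SE 0.17) and Klf4 -0.097 (SE 0.13). Of 11 monocyte and macrophage genes 9 were above 0, with a median of 0.11, and groups did not overlap for Csf1r and Cd68; their summed level was 1408 to 2022 CPM in mKO and 1266 to 1583 CPM in control. The lower of those values in mKO was library 3, which had the highest Cd209a level.

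Siglech (ENSMUSG00000051504, chromosome 7), a lectin of pDC that signals through the adaptor TYROBP, had 0.659, 0.569 and 0.837 CPM in mKO libraries and 0.523, 0.889 and 0.729 CPM in control libraries. The groups overlapped throughout. Siglech had a log2 fold change of -0.051 (SE 0.30, 95% interval -0.74 to 0.64, edgeR adjusted p 0.953), whose sign turned when mKO library 2 or control library 2 was left out. Of 13 measured of 14 companion pDC genes, 6 were above 0 and 7 below, with a median of -0.012. Tcf4, the factor of pDC, stood at 0.020 on the log2 scale (SE 0.17) and Ly6d at -0.012 (SE 0.39). Irf7, which pDC hold at high level and which interferon induces in other cells, had 98.9, 68.2 and 89.3 CPM in mKO libraries and 257, 144 and 120 CPM in control libraries. Every mKO value was below every control value, and the log2 fold change was -1.02 (SE 0.30, adjusted p 0.312 by edgeR and 0.0274 by DESeq2). The interferon-inducible gene Bst2 had -0.61 (SE 0.31), Runx2 had 0.57 (SE 0.19) with groups that did not overlap, and Lag3 had -0.35 (SE 0.32). Among the rest, Spib had 0.053 (SE 0.36) and Ccr9 0.015 (SE 0.24), while Cox6a2, with the largest estimate of the list, had 0.497, 0.0785 and 1.71 CPM in mKO libraries and 0.0817, 0.115 and 0.665 CPM in control libraries, which overlapped. Pacsin1 (-0.57) and Atp1b1 (-0.54) overlapped too, so the pDC list had no common direction. Both were lowest in mKO library 3 and highest in control library 3, as were the cDC1 gene Cadm1 and Th. The part of carried-over nerve tissue in these values was not tested.

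Flt3 (ENSMUSG00000042817, chromosome 5), the receptor through which FLT3 ligand expands dendritic cells and their precursors, had the smallest p among the members. It had 3.02, 3.67 and 3.62 CPM in mKO libraries and 1.92, 2.25 and 2.27 CPM in control libraries. Its groups were well apart, and the SD was 0.359 CPM in mKO and 0.201 CPM in control. The log2 fold change of Flt3 by edgeR was 0.68 (SE 0.17, 95% interval 0.27 to 1.08). Its adjusted p was 0.253 by edgeR and 0.0117 by DESeq2, and the two-sided exact permutation test gave p = 0.1. DESeq2 called Flt3 also without mKO library 1, control library 1 or control library 3 (largest adjusted p 0.0481), and lost the call without mKO library 2 (0.0678), mKO library 3 (0.107) or control library 2 (0.0538). Flt3l, the gene of its ligand, went the other way, with 5.59, 4.75 and 5.68 CPM in mKO libraries and 5.81, 7.43 and 5.84 CPM in control libraries. Its groups did not overlap, by a narrow margin, and its log2 fold change was -0.25 (SE 0.16) (edgeR adjusted p 0.534).

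Set against Ptprc alone, the Flt3 difference was smaller. Flt3 had 0.0105 ± 0.000773 counts per count of Ptprc in mKO and 0.00963 ± 0.00166 in control (SD, n = 3 each), a log2 difference of 0.14 with a two-sided exact permutation p of 0.6. On the same scale Itgae had a difference of 0.40 in place of 0.94, and its groups barely missed each other (lowest mKO ratio 0.00347, highest control ratio 0.00345); Cd209a had 0.32 with overlap. Xcr1 (-1.54), Zbtb46 (-0.81), Clec9a (-0.72) and Ccr7 (-0.64) were lower relative to Ptprc in every mKO library than in any control library, and Siglech (-0.58) and Batf3 (-0.49) overlapped. Ptprc itself was higher in mKO, so each of these values holds the Ptprc difference too. Other leukocyte genes did not all rise with it. List medians were -0.35 for T cells, -0.35 for NK cells, -0.085 for B cells and 0.11 for monocytes and macrophages. Leukocyte content was not tested. Xcr1 and Zbtb46 were already lower in every mKO library, so their separation relative to Ptprc was fixed in advance. Of progenitor genes, whose cells also carry Flt3, all 5 measured of 6 had a log2 fold change below 0, with a median of -0.38 and a summed level of 44.4 to 59.3 CPM in mKO and 54.8 to 77.6 CPM in control. Kit, a receptor of progenitors and mast cells, had 9.66 to 13.2 CPM in mKO and 13.6 to 14.9 CPM in control, and Cd34, shared with endothelium, overlapped, as did Spink2, at 0.814 ± 0.231 CPM in mKO and 0.858 ± 0.0979 CPM in control (SD, n = 3 each). Per count of Kit, Flt3 had 0.319 ± 0.0466 counts in mKO and 0.151 ± 0.0105 in control (SD, n = 3 each), and the part of progenitors in the Flt3 result was not tested further. Kit was lower and Flt3 higher in every mKO library, so this ratio had to separate the groups. Of 6 B cell genes 2 were above 0 and 4 below (median -0.085, and 0.45 without control library 2), none with groups that did not overlap, and the summed level was 24.6 to 41.9 CPM in mKO and 21.5 to 56.6 CPM in control.

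**Figure D2:**
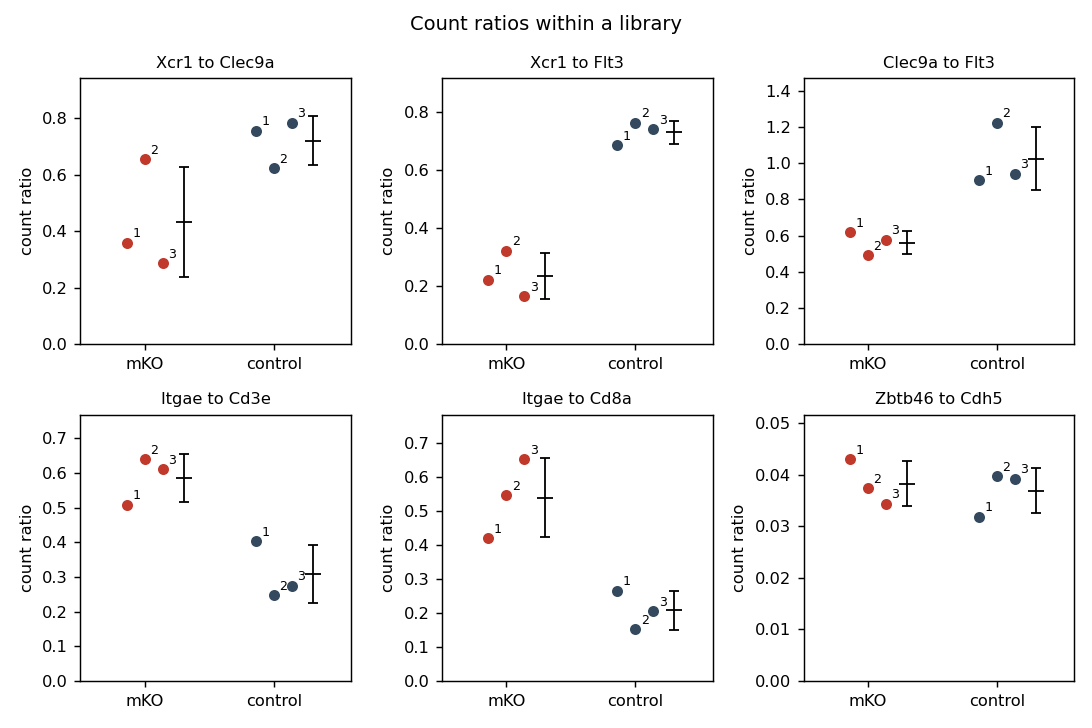
Ratio of counts of the first gene to the second (y axis, from 0) within each library, mKO in red on the left and control dark on the right, with library numbers and mean and SD bars. Xcr1 to Flt3 separated the groups widely (0.165 to 0.321 in mKO, 0.685 to 0.762 in control), which the levels of both genes had fixed in advance. Xcr1 to Clec9a overlapped because of mKO library 2, and Zbtb46 to Cdh5 overlapped.

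Ratios between members need no scaling between libraries, and of the 4 computed, 2 separated the groups. Xcr1 had 0.222, 0.321 and 0.165 counts for each count of Flt3 in mKO libraries, against 0.685, 0.762 and 0.739 in control libraries. The highest mKO ratio was under the lowest control ratio by more than the SD of either group, 0.0793 in mKO and 0.0395 in control. Clec9a had 0.618, 0.491 and 0.577 counts per count of Flt3 in mKO libraries and 0.906, 1.22 and 0.943 in control libraries, again with no overlap. For both ratios the two-sided exact permutation test gave p = 0.1, its lowest possible value, and the pairs were chosen after the values of their members were seen. Xcr1 was lower and Flt3 higher in every mKO library, so the ratio of Xcr1 to Flt3 had to separate the groups. Its p-value is therefore no further result. For Clec9a to Flt3, Flt3 alone separated the groups and Clec9a alone did not, and the Clec9a count is uncertain. That ratio is no independent result either. Cd209a to Flt3 overlapped, at 0.636 ± 0.0760 in mKO and 0.577 ± 0.167 in control (SD, n = 3 each).

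Zbtb46 (ENSMUSG00000027583, chromosome 2), a transcription factor of conventional dendritic cells that endothelium also expresses, had 3.36, 2.90 and 3.48 CPM in mKO libraries and 3.67, 4.39 and 3.66 CPM in control libraries. The groups did not overlap, by a narrow margin between mKO library 3 and control library 3. On the log2 scale the difference was -0.27 (SE 0.16, 95% interval -0.64 to 0.11, edgeR adjusted p 0.530). Endothelial genes were lower too: all 9 had a log2 fold change below 0, with a median of -0.26 (-0.14 without control library 2), a summed level of 676 to 832 CPM in mKO and 910 to 1060 CPM in control, and no marker near 0. Groups did not overlap for Pecam1 (-0.24, SE 0.14), Emcn (-0.49, SE 0.14) and Esam (-0.47, SE 0.15), and DESeq2 called Emcn (adjusted p 0.0423). The others overlapped, and Tek (-0.052, SE 0.21), Tie1 (-0.047, SE 0.16) and Erg (-0.13, SE 0.15) had small estimates. Per count of Cdh5, the cadherin of endothelial junctions, Zbtb46 had 0.0382 ± 0.00435 counts in mKO and 0.0369 ± 0.00443 in control (SD, n = 3 each), with a log2 difference of 0.052. Relative to this endothelial gene the groups overlapped. Cdh5 itself had a log2 fold change of -0.31 (SE 0.15), so this ratio had to differ less than Zbtb46 did. Ratios to Tek, Tie1 or Erg were not computed, and the part of endothelium in the Zbtb46 result was not tested.

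Ccr7 (ENSMUSG00000037944, chromosome 11), the receptor that leads mature dendritic cells and naive T cells to lymphatic vessels and nodes, varied widely within control. It had 5.50, 6.09 and 6.28 CPM in mKO libraries and 6.47, 8.66 and 4.6 CPM in control libraries. The control libraries thus spanned the mKO range on both sides. Ccr7 had a log2 fold change of -0.14 (SE 0.22, 95% interval -0.67 to 0.38, edgeR adjusted p 0.793), which was 0.11 without control library 2. Per count of Cd3e, Ccr7 had 2.86 ± 0.129 counts in mKO and 3.31 ± 1.65 in control (SD, n = 3 each). Of its ligands, Ccl21a had 5.13, 5.72 and 3.24 CPM in mKO libraries and 8.25, 12.4 and 6.92 CPM in control libraries, and Ccl19 overlapped, at 0.949 to 2.02 CPM in mKO and 0.684 to 2.59 CPM in control. Ccl21a was lower in every mKO library, by -0.97 on the log2 scale (SE 0.28, adjusted p 0.308 by edgeR and 0.0457 by DESeq2); near-identical copies of it exist in the mouse, so its count is uncertain.

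Genes of mature dendritic cells, 14 measured of 18 listed, were split, with 6 above 0, 8 below and a median of -0.18. The mKO libraries lay all above control for Cd274, which codes for the checkpoint ligand PD-L1 (0.60, SE 0.17), Pdcd1lg2 (0.54, SE 0.17), the costimulatory gene Cd86 (0.34, SE 0.13) and Cd83 (0.57, SE 0.25), all of them genes that other activated myeloid cells express. They lay all below control for Fscn1, the actin bundler of mature dendritic cells that endothelium also expresses (-0.50, SE 0.12), and for Ccl5, a chemokine of T and NK cells as well (-0.94, SE 0.19). DESeq2 called these last 2 (adjusted p 0.0156 and 0.00216), and by edgeR the smallest adjusted p in the list was 0.208. Ccl22, a chemokine more restricted to dendritic cells, had 1.84, 1.30 and 2.25 CPM in mKO libraries and 2.05, 2.41 and 1.36 CPM in control libraries, which overlapped, as did Il15ra (-0.54, SE 0.25). NK cell genes, whose cells make XCL1, had 1 of 6 above 0, with a median of -0.35 (0.0071 without control library 2) and a summed level of 3.73 to 6.49 CPM in mKO and 5.68 to 13.4 CPM in control; Gzma alone had groups that did not overlap (-1.40, SE 0.45). Ncr1 and Klrb1c, the defining markers of NK cells, were at 0.0646 to 0.795 CPM over all libraries.

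**Figure D3:**
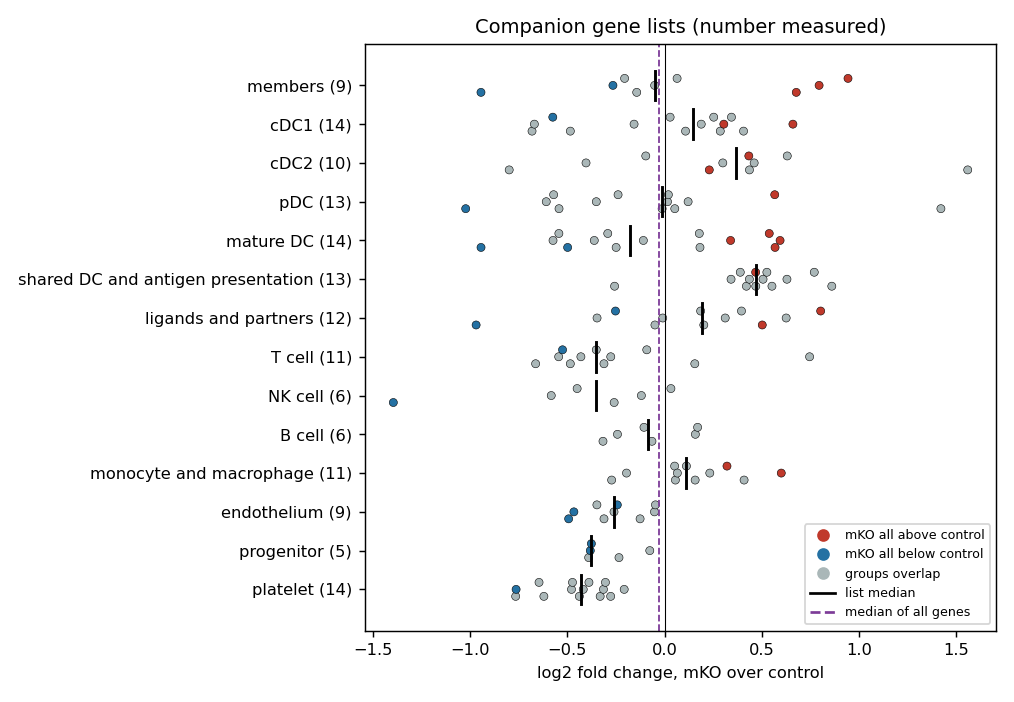
Log2 fold change of mKO over control (x axis) for the 9 members and the genes of each companion list (rows, number measured in brackets). Points are genes, coloured by whether the mKO libraries lay all above, all below or within reach of the control libraries, black bars are list medians and the dashed line is the median of all genes, -0.030. The shared dendritic cell and antigen presentation list had the highest median, 0.47, with 12 of 13 genes above 0.

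Genes shared by dendritic cells and other antigen-presenting cells had the highest median of the lists, 0.47, with 12 of 13 above 0. Many of them are class II genes that moved together over the libraries, so the 13 are not separate observations. Itgax, which codes for CD11c and is also carried by macrophages, had 63.7, 92.9 and 112 CPM in mKO libraries and 47.7, 56.4 and 69.6 CPM in control libraries. Control library 3 exceeded mKO library 1, and the log2 fold change was 0.63 (SE 0.23). Ciita, the master regulator of MHC class II, had 5.22, 1.48 and 6.13 CPM in mKO libraries and 2.62, 3.32 and 1.12 CPM in control libraries. As with Ciita, mKO library 2 lay within the control range for H2-Aa, H2-Ab1, H2-Eb1, H2-DMa, H2-DMb1 and Cd74, so that mKO libraries 1 and 3 carried the class II difference, with log2 fold changes of 0.39 (SE 0.28) for H2-Eb1 to 0.77 (SE 0.29) for H2-DMb1. The only gene of the list whose groups did not overlap was Ikzf1, a factor of all lymphoid and many myeloid cells (0.47, SE 0.13). Dpp4, found on cDC1 and on other cells, was the gene below 0 (-0.26, SE 0.24). By edgeR the smallest adjusted p in the list was 0.298.

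Among partners of the members, 12 measured of 13 listed, 7 were above 0 and 5 below, with a median of 0.19. Tyrobp, the adaptor of Siglec-H and of many myeloid receptors, had groups that did not overlap, higher in mKO (0.50, SE 0.20). Syk, the kinase that acts below CLEC9A, overlapped (0.19, SE 0.20), and Il15 had 0.63 (SE 0.23). Xcl1, the ligand of XCR1, was not analysed here.

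**Figure D4:**
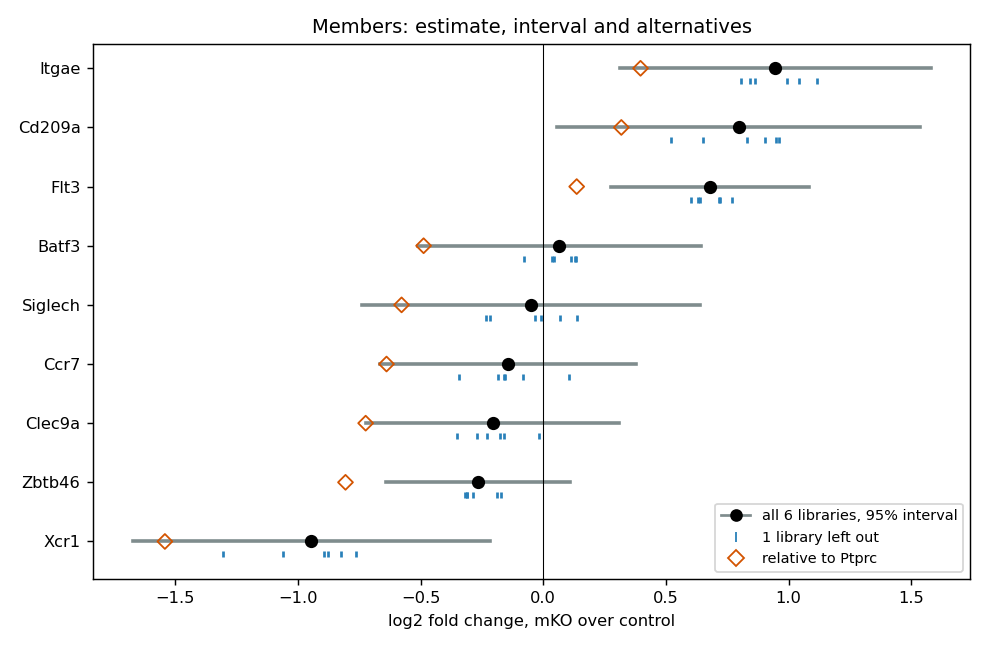
Log2 fold change of mKO over control (x axis) for each member, with the edgeR estimate and its 95% interval (black point and grey bar), the 6 estimates with 1 library left out (blue ticks) and the log2 difference relative to Ptprc (orange diamonds). Intervals of Itgae, Cd209a, Flt3 and Xcr1 leave out 0, and relative to Ptprc every member lies further to the left.

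Per kilobase of exon, using exon lengths of GENCODE M21, Ccr7 had the highest level of the members, 3.01 ± 0.207 CPM per kb in mKO and 3.32 ± 1.03 CPM per kb in control (SD, n = 3 each). Cd209a followed, with 1.38 ± 0.238 CPM per kb in mKO and 0.796 ± 0.288 CPM per kb in control (SD, n = 3 each). Clec9a had 0.583 ± 0.0461 CPM per kb in mKO and 0.672 ± 0.156 CPM per kb in control (SD, n = 3 each), so it did not differ from Cd209a beyond their spread in control. The order of the lower members was not the same in the groups. In mKO, Flt3 (0.557 CPM per kb) stood beside Clec9a, followed by Batf3 (0.40 CPM per kb), Zbtb46 (0.382 CPM per kb), Itgae (0.269 CPM per kb), Siglech (0.203 CPM per kb) and Xcr1, the lowest (0.183 CPM per kb). In control, Zbtb46 (0.459 CPM per kb) came next, then Batf3 (0.383 CPM per kb), Xcr1 (0.352 CPM per kb), Flt3 (0.348 CPM per kb), Siglech (0.211 CPM per kb) and Itgae, the lowest (0.140 CPM per kb). Xcr1 and Flt3 thus had nearly the same level per length in control, and in mKO their means differed by more than the SD of either, 0.0711 for Xcr1 and 0.0582 for Flt3. Neighbours such as Batf3 and Zbtb46 in mKO lay within their SD of each other.

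The profiles over the 6 libraries, each centred on its own mean log2 CPM, were compared by their root mean square (RMS) difference among 13885 other genes of at least 1 CPM. For Flt3 the closest genes were Nr4a1 (RMS difference 0.091), an immediate early gene of activated cells, Dna2 (0.0999) and Stap1 (0.101). For Cd209a they were Syne3 (0.14), Cd83 (0.17), which marks activated antigen-presenting cells, and H2-M1 (0.20). For Xcr1 they were Gm14036 (0.070), Gsta2 (0.12) and Hotairm1 (0.13). Zbtb46 lay closest to Sec24d (0.023), Bysl (0.030) and Flt3l (0.033), Clec9a to Zfp72 (0.040), mt-Nd4l (0.046) and Gm28439 (0.047), and Ccr7 to Clmn (0.045), Tbc1d4 (0.11) and Zdhhc23 (0.11). Among the members, Flt3 and Itgae had an RMS difference of 0.18 and Clec9a and Siglech one of 0.13, the smallest of all pairs. With 6 points and so many genes, close profiles are found for most genes, and these are descriptions only.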

How the data were processed

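For each library the authors deposited a table of whole-number counts by gene, without scaling. The submitters' processing notes name HISAT2 2.1.0, featureCounts 2.0.1, Trim Galore 0.4.0, FastQC 0.11.8 and, as build, GRCm39, without roles. Strand setting, annotation release, gene filter and the handling of shared reads are not stated there or in the labels. Libraries were poly(A)-selected and sequenced in paired ends, per the labels' protocols.

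Counts were fitted over all 6 libraries with edgeR 4.0.16 (R 4.3.3): default expression filter (16523 of 16533 genes), TMM scaling, robust quasi-likelihood F-test, Benjamini-Hochberg adjustment over all genes, threshold 0.05. CPM uses TMM-scaled totals; SEs follow from the F statistic. DESeq2 1.42.0, limma 3.58.1 voom, other scalings, no filter, a replicate block, libraries without globin and mitochondrial genes, and leaving out each library were alternatives; the fits were tested on simulated data. Members and companion lists were chosen with earlier results of these data known; platelet genes and most ratios were added after values were seen, and 1 gene of the T cell list is not reported here. All members were named; from each list, its first 2 genes and up to 3 genes per direction by p were eligible, and other genes named were chosen after their values were seen. No replicate pair agreed within sampling noise. The labels do not say whether pools shared litters or days. Sequences were from RefSeq GRCm38.p6, and lengths and overlaps from GENCODE M21 (GRCm38); no coordinates were converted. Intervals for fold changes use the moderated degrees of freedom; the counting error given is Poisson.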

Additional observations from a re-analysis of the deposited data

How the results depend on the processing

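Under the 14 alternative settings listed beforehand with earlier results known, Xcr1, Clec9a and Zbtb46 stayed below 0 and Flt3, Itgae and Cd209a above 0, and Flt3 with DESeq2 was the only member to pass the threshold. Leaving out each library gave -1.31 to -0.76 for Xcr1, 0.81 to 1.12 for Itgae, 0.60 to 0.77 for Flt3, 0.52 to 0.96 for Cd209a, -0.32 to -0.17 for Zbtb46 and -0.35 to -0.015 for Clec9a (log2). Signs turned on leaving out a library for Batf3 (-0.077 to 0.13, below 0 without mKO library 1), Siglech (-0.23 to 0.14, above 0 without mKO library 2, at 0.068, or control library 2) and Ccr7 (-0.35 to 0.11, above 0 without control library 2), and for Batf3 also relative to Ptprc (-0.49). Among ratios added after seeing the data, signs turned for Zbtb46 relative to Cdh5 (0.052) and Clec9a relative to Clec1b (0.49). The cause was not tested. DESeq2 called 462 genes and 1 member where edgeR called 0 of each; leaving out each library, edgeR called 0 to 7 genes and 0 members, and DESeq2, chosen after seeing the data, called 552, 497 and 312 genes without mKO libraries 1 to 3, 764, 243 and 353 without control libraries 1 to 3, and 0 to 2 members (Flt3 and Itgae without mKO library 1). List medians, leaving out each library, ran from 0.034 to 0.19 for cDC1, -0.19 to 0.053 for pDC, -0.23 to 0.029 for mature dendritic cells, 0.15 to 0.36 for partners, -0.17 to 0.22 for monocytes and macrophages, -0.40 to -0.20 for progenitors, -0.50 to -0.10 for T cells, -0.58 to 0.0071 for NK cells, -0.32 to 0.45 for B cells, -0.39 to -0.14 for endothelium and -0.78 to -0.26 for platelets. With the replicate number as a block, 0 genes passed, 1299 had an unadjusted p under 0.05 in place of 1960, and Flt3 had a log2 fold change of 0.68 (adjusted p 0.579 by edgeR). Same-numbered libraries deviated apart (r = -0.14, -0.15 and -0.27 across genes), and no mKO library correlated best with its own number. These values showed no pairing by number, but they cannot exclude that pools shared litters or days.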
